A study of Bos taurus with 20 samples.

Results

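Myostatin messenger RNA, the product of 1 gene (MSTN, also named GDF8) of the 27607 genes listed, was followed in skeletal muscle of 20 calves. The gene was chosen by name, as the row with the Ensembl identifier ENSBTAG00000011808, and not by a rule on its values. Earlier results of these data were known when it was chosen. The animals were Angus by Holstein-Friesian crossbred heifers, fed differently from 2 to 21 weeks of age and all sampled at 21 weeks. The 10 High plane calves were given 10 litres (1.5 kg) of milk replacer each day and ate concentrates at will for 8 weeks, after which they had concentrates at will and hay for 11 weeks. Daily rations of the 10 Moderate plane calves were 4 litres (0.5 kg) of milk replacer with 1 kg of concentrates in the first phase, and 1 kg of concentrates with hay in the second. Expected gains were 1.2 and 0.5 kg per day. Feeding at each plane ran until sampling, so early feeding and feeding at the time of sampling cannot be told apart. Which muscle was sampled is not given in the sources used here.

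Myostatin is a secreted ligand of the transforming growth factor beta family that muscle itself makes. It is synthesised as a precursor, cut by proteases to release the mature signal, held inactive by its own propeptide and by binding proteins such as follistatin, and read by activin type II receptors, which pass the signal on through SMAD2 and SMAD3. It restrains the number and size of muscle fibres, and cattle that lack working myostatin are very heavily muscled. The comparison of the feeding planes gives the level of this transcript in calves set to grow at different rates. Only the transcript was measured, and neither the secreted protein nor its processing.

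The values are counts per 1000000 reads after scaling of the library sizes (scaled CPM). The libraries held 12280289 to 14123113 reads assigned to genes, and 1 read was worth 0.0673 to 0.111 scaled CPM. Over all tested genes 2 libraries differed from the rest of their groups, replicate 2 of the High plane and replicate 4 of the Moderate plane, so results are given with and without them. Apart from MSTN, the rows of the table carry identifiers without symbols. The receptors, antagonists, SMAD proteins and targets of myostatin were therefore not analysed here, and the tissue label was not checked against muscle markers. In the RefSeq annotation of the bovine assembly ARS-UCD2.0, MSTN is a protein-coding gene between C2H2orf88 and PMS1, and 0 other genes overlap it. The closest relative, GDF11, is a separate gene in the same annotation, and how reads that fit both would have been counted is not given in the sources used here.

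MSTN was detected in every library, with 24 to 282 reads in High plane calves and 57 to 196 in Moderate plane calves. In the 10 High plane calves the level was 2.66 scaled CPM at the lowest (replicate 2), 9.81 at the median and 19.3 at the highest (replicate 8). In the 10 Moderate plane calves it was 4.49 scaled CPM at the lowest (replicate 4), 9.43 at the median and 15.2 at the highest (replicate 6). The groups overlapped almost completely. All 10 Moderate plane calves lay within the High plane range, and 7 of the 10 High plane calves lay within the Moderate plane range. The 2 High plane calves above that range were replicates 1 and 8, at 16.4 and 19.3 scaled CPM, and the 1 below it was replicate 2. High plane replicate 3, at 14.6 scaled CPM, was the next highest of its group. The medians were 0.374 scaled CPM apart. In both groups 4 of 10 calves lay between 9 and 11 scaled CPM, but these limits were not planned. Moderate plane replicate 7, at 9.003, and High plane replicate 9, at 10.99, lay just inside them. On the Moderate plane replicates 2 and 6 were highest, and replicates 3 and 4 were lowest, at 4.62 and 4.49 scaled CPM. In bulk muscle, fewer cells that make a transcript and less of it per cell cannot be told apart.

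**Figure D1:**
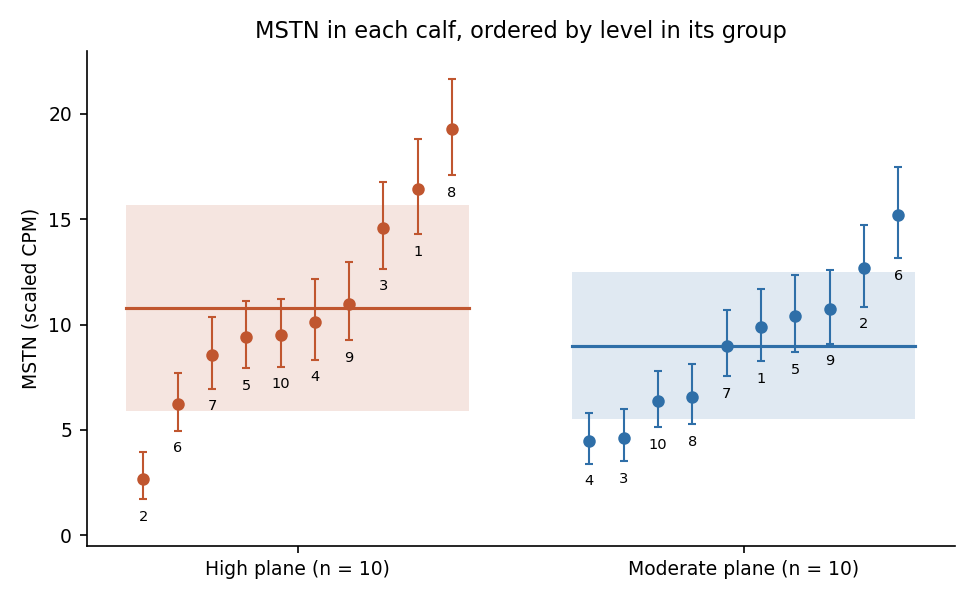
Points give the MSTN level of each calf in scaled CPM (vertical axis) with its exact 95% Poisson interval, which covers counting error only; calves are ordered by level within the High plane (left) and the Moderate plane (right), and the number under a point is the replicate. Lines and shaded bands are the group mean and 1 SD; the bands overlap, and the Moderate plane calves, at 4.49 to 15.2 scaled CPM, all fall inside the High plane range of 2.66 to 19.3.

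MSTN did not pass the test between the feeding planes. The mean level was 10.8 ± 4.88 scaled CPM on the High plane and 8.99 ± 3.497 on the Moderate plane (SD, n = 10 each), a ratio of means of 1.20. On the log2(scaled CPM + 1) scale the difference, High minus Moderate, was 0.19 ± 0.25 (SE), or 1.14-fold, with a limma p of 0.466 and a Benjamini-Hochberg adjusted p of 0.791. In the same fit 258 of 12057 tested genes, 2.14%, were called at an adjusted p below 0.05, 1.14% as higher and 0.995% as lower on the High plane. That background of 138 genes higher and 120 lower turned on single calves: leaving out Moderate plane replicate 2 gave 80 and 62, and leaving out High plane replicate 2 gave 210 and 200. It was 292 and 291 with DESeq2 and 333 and 286 with voom. By p, MSTN was in place 7104 of the 12057 genes, and 64.9% of them had a smaller change in size. Permuting the group labels of the MSTN values gave p = 0.51 (100000 resamples, two-sided). Of the 100 pairs of a High and a Moderate plane calf, the High plane calf had the higher level in 59.

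The interval of the difference shows what these calves can and cannot resolve. Its 95% limits were -0.34 and 0.71 on the log2(scaled CPM + 1) scale, that is, from 1.26-fold lower to 1.64-fold higher on the High plane. The missed threshold therefore does not show that MSTN was alike in the groups, and a moderate rise is within the interval. With the spread seen for MSTN, a log2 difference of 0.95, or 1.93-fold, would have been needed to reach the largest p called in this fit, 0.00106. The median change of the 258 called genes was 1.57-fold. Their median SD within groups was 0.34 log2 units, against 0.32 for all tested genes and 0.62 for MSTN. Of all tested genes, 95.2% had a smaller SD within groups than MSTN. Among the 258 called genes 16 had a larger one, so genes this variable were not rarer there than among all tested genes. The median size of the log2 change of these 16 was 1.55, and at such an SD only a large change can be called.

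Without the 2 libraries that stood apart the High plane mean was 11.7 ± 4.20 scaled CPM and the Moderate plane mean was 9.49 ± 3.31 (SD, n = 9 each). The log2 difference was 0.27 ± 0.20 (SE; 95% interval -0.15 to 0.70; limma adjusted p = 0.497), and the exact permutation p was 0.238. Leaving out High plane replicate 2 alone moved the value most: without it the log2 difference was 0.36 (limma adjusted p = 0.375). High plane calves had the higher mean in each of the 34 other fits made, and MSTN passed the threshold in 0 of them, with unadjusted p from 0.103 to 0.734.

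**Figure D2:**
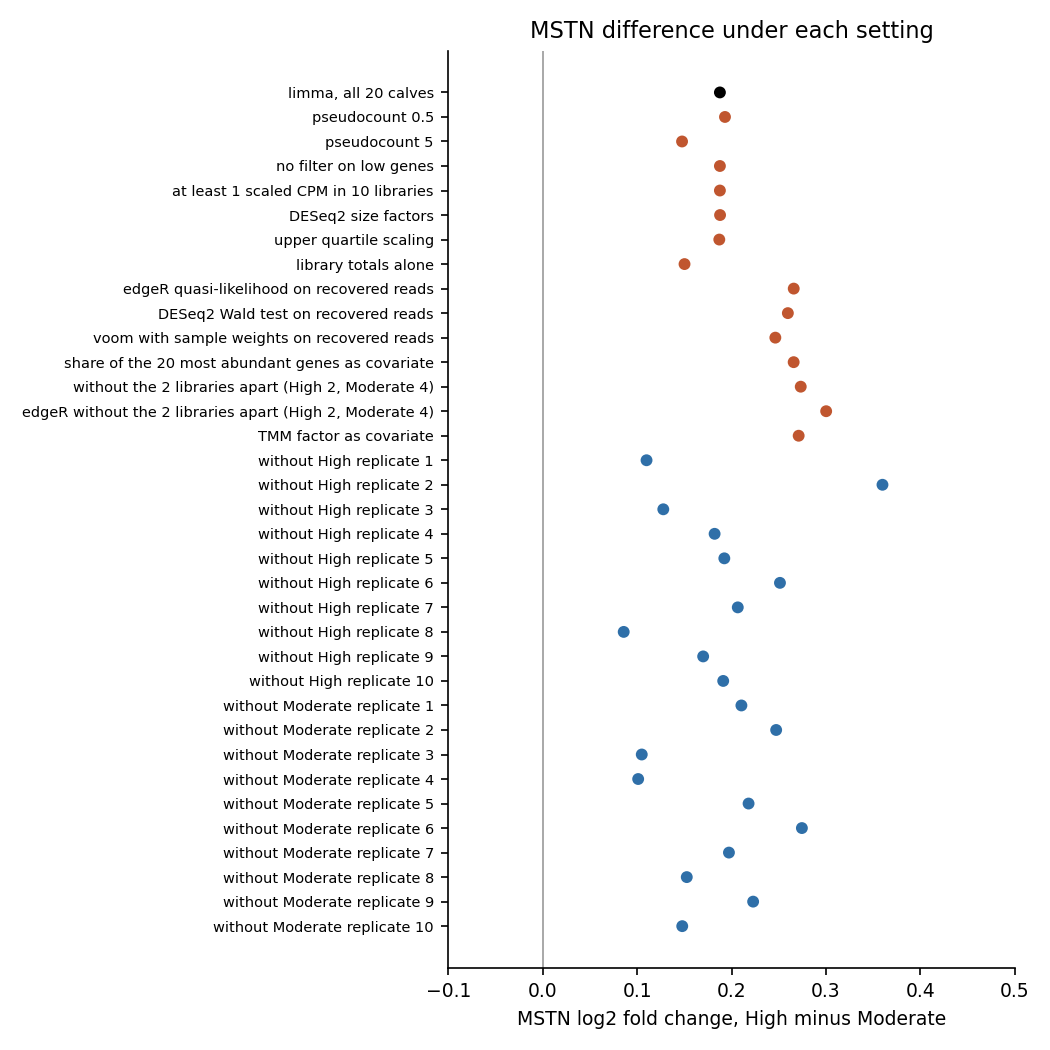
Each point is the log2 fold change of MSTN, High minus Moderate (horizontal axis, log2 units), under 1 setting, named on the vertical axis: limma with all 20 calves in black, other tests, scalings, filters and covariates in red, and fits without 1 calf in blue; the vertical line marks no difference. All points lie above 0, from 0.09 without High plane replicate 8 to 0.36 without High plane replicate 2, and none passed the threshold.

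The spread of MSTN between calves fed alike was wide. The highest level was 7.23 times the lowest on the High plane and 3.39 times the lowest on the Moderate plane. The coefficient of variation of the scaled CPM was 45.3% on the High plane and 38.9% on the Moderate plane. Counting error was a small part of this: the SD expected from read sampling was 0.12 log2 units, 4.04% of the variance within groups. The SD within groups on the log2(scaled CPM + 1) scale, 0.62, was 2.02 times the value of the limma trend at that level, 0.31. It was larger than that of 95.2% of all tested genes, whose median was 0.32. Among the 1233 genes with a mean log2 level within 0.25 of that of MSTN, 65 had a larger SD. The edgeR fit to the recovered reads gave MSTN a biological coefficient of variation of 0.408, against 0.277 for the trend at its level.

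**Figure D3:**
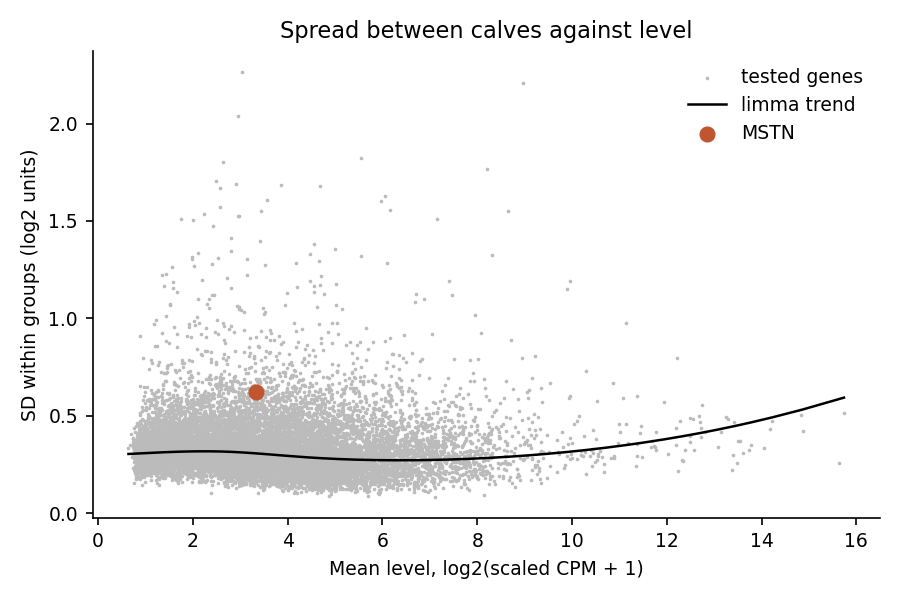
Each grey point is 1 of the 12057 tested genes, with its mean level on the log2(scaled CPM + 1) scale (horizontal axis) and its SD between calves within groups in log2 units (vertical axis); the line is the limma trend and the red point is MSTN. MSTN lies above the trend, at an SD of 0.62 against 0.31.

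Part of this spread came with the 2 libraries that stood apart. Without them the SD of MSTN within groups was 0.47 log2 units, larger than that of 91.6% of tested genes over the same calves, and the highest level was 3.10 times the lowest on the High plane and 3.29 times on the Moderate plane. The spread did not differ between the planes by more than the permuted values: the mean absolute deviation from the group median was 0.47 log2 units on the High plane and 0.42 on the Moderate plane (difference of 0.05; permutation p = 0.797, 100000 resamples, two-sided). Without High plane replicate 2 the sign of this difference turned, to -0.075 (permutation p = 0.615); without it and Moderate plane replicate 4 it was -0.012 (permutation p = 0.935).

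Both libraries that stood apart had the lowest MSTN level of their group. High plane replicate 2 had 2.66 scaled CPM, from 24 reads, against 11.7 ± 4.20 in the other 9 High plane calves (SD), whose lowest value was 6.22. It was 3.30-fold lower than their mean on the log2(scaled CPM + 1) scale, and 68 of 12057 genes, or 0.564%, lay at least as far below. Moderate plane replicate 4 had 4.49 scaled CPM, from 57 reads, against 9.49 ± 3.31 in the other 9 Moderate plane calves (SD). It was 1.82-fold below their mean on the log2(scaled CPM + 1) scale, which 13.7% of genes matched or exceeded. It lay next to Moderate plane replicate 3 at 4.62 scaled CPM. The gap to the nearest calf of the group was thus wider for the High plane library than for the Moderate plane library. For the High plane library it was 0.396 of the group's range on the log2(scaled CPM + 1) scale. This was under the critical share of 0.466 for an outlying value.

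The MSTN level and the axis that set these libraries apart ran in opposite directions, though not past the threshold after adjustment. This axis, the first principal component of the group-centred levels of the 12056 other tested genes, carried 32.7% of their variance within groups, and High plane replicate 2 and Moderate plane replicate 4 scored 62.4 and 59.2 on it, with 21.5 as the next highest score. Because these 2 calves form a cluster of their own, the relation is given over the other 18. There the group-centred MSTN level correlated with the score at r = -0.52 (permutation p = 0.0255) and Spearman's rho = -0.54 (permutation p = 0.0235). Adjusted over the 5 library measures examined, the p-values were 0.128 and 0.102, and without the 2 calves farthest from the median score r was -0.48 (permutation p = 0.06), and what the axis stands for was not tested.

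**Figure D4:**
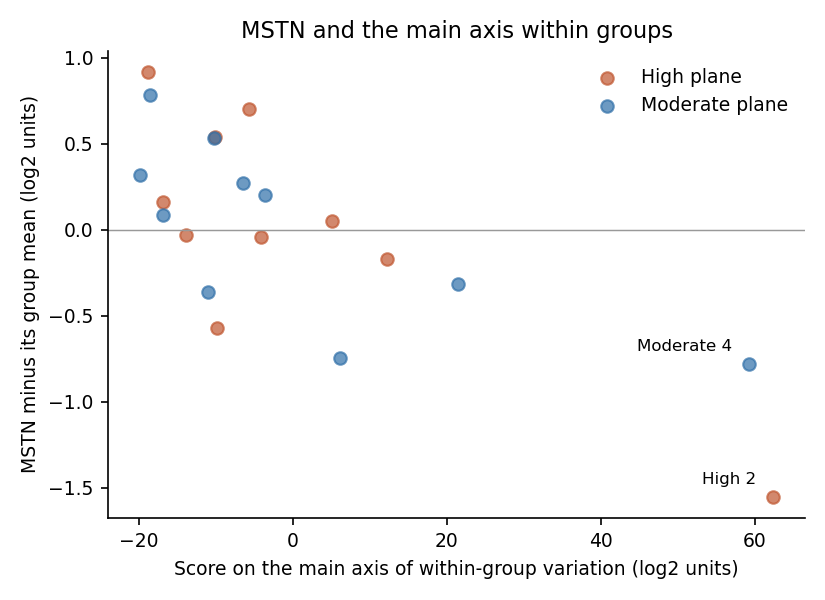
Each point is 1 calf, for the High plane (red) and the Moderate plane (blue). The horizontal axis is its score on the main axis of variation within groups, a weighted sum of group-centred log2 levels over genes. The vertical axis is its MSTN level minus the group mean (log2 units). The 2 named libraries lie far to the right, at 62.4 and 59.2, and below 0 on the MSTN axis.

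Technical measures of the libraries moved with MSTN over all 20 calves, and their part in the spread of MSTN was not tested. The group-centred MSTN level correlated with the library total at r = -0.58 (permutation p = 0.00833, adjusted over 4 measures p = 0.0167; rho = -0.57, permutation p = 0.0091). With the TMM factor it was r = 0.59 (permutation p = 0.00737, adjusted p = 0.0167; rho = 0.37, permutation p = 0.107). With the number of genes with a read it was r = 0.54 (permutation p = 0.0154, adjusted p = 0.0185; rho = 0.36, permutation p = 0.119). With the percentage of reads that fell in the top 20 genes it was r = -0.52 (permutation p = 0.0185, adjusted p = 0.0185; rho = -0.29, permutation p = 0.219).

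The relations with the TMM factor, the number of genes and the top 20 percentage rested on the libraries farthest out. Without the 2 calves farthest from the median of each measure, r was 0.35 (permutation p = 0.146), 0.10 (permutation p = 0.68) and -0.21 (permutation p = 0.397). For the library total, where Moderate plane replicate 4 and High plane replicate 3 were farthest, r was -0.50 (permutation p = 0.0354). Over the 18 calves without the 2 libraries that stood apart, r was -0.43 for the library total (permutation p = 0.0786, adjusted p = 0.314), 0.20 for the TMM factor, 0.10 for the number of genes and -0.12 for the top 20 percentage. None of these 4 passed the threshold, with adjusted p from 0.314 to 0.704. Spearman's rho for the library total over the same 18 calves was -0.49 (permutation p = 0.0409, adjusted p = 0.163). With the TMM factor as a covariate the feeding difference in MSTN was 0.27 (limma adjusted p = 0.513), and with the top 20 percentage it was 0.27 (limma adjusted p = 0.547). A fit with the library total as a covariate was not made.

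The genes whose levels went most nearly with MSTN were sought by Pearson correlation of group-centred log2(scaled CPM + 1) levels over the 20 calves, which removes the mean difference between the planes. These values are descriptions, given without a test, and all genes share the same libraries and scaling. The highest were ENSBTAG00000021967 (r = 0.88) and ENSBTAG00000049091 (r = 0.87), and the lowest were ENSBTAG00000003148 (r = -0.87) and ENSBTAG00000003639 (r = -0.85). Without the 2 libraries that stood apart, r was 0.77, 0.79, -0.76 and -0.72 for the same genes. None of the 4 was called between the feeding planes (limma adjusted p from 0.772 to 0.854). Their symbols are not given by the table.

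ENSBTAG00000021967 ranged from 2.22 over a median of 6.14 to 10.1 scaled CPM on the High plane, and from 3.70 over 7.67 to 9.74 on the Moderate plane. ENSBTAG00000049091 ranged from 15.7 over 46.2 to 59.7 scaled CPM on the High plane, and from 20.2 over 48.3 to 74.7 on the Moderate plane. In both genes the lowest calf of each group was the one that stood apart, as for MSTN. ENSBTAG00000003148 kept to a narrow range, 30.8 to 43.1 scaled CPM on the High plane and 29.8 to 42.6 on the Moderate plane. ENSBTAG00000003639 ranged from 19.6 to 38.7 and from 21.7 to 39.2 scaled CPM. For these 2 genes the calves that stood apart were the highest of their groups. All 4 genes were picked by r with MSTN over the 20 calves, the 2 that stood apart included. Their extreme values in those 2 calves are therefore not a result separate from the choice. When the libraries were scaled by their totals alone, ENSBTAG00000003148 no longer went against MSTN (r = 0.041), and the value of ENSBTAG00000003639 was -0.33.

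Over all 12056 other tested genes r with MSTN ran from -0.87 to 0.88 with a median of 0.01. It was at least 0.7 in 449 genes and at most -0.7 in 302, together 6.23%. Without the 2 libraries that stood apart these numbers were 21 and 8, together 0.241%, and 20 genes were past 0.7 in the same direction with and without them. The median size of r was 0.40 with all calves and 0.21 without the 2. Leaving out single calves gave from 61 such genes, without High plane replicate 2, to 1508, without High plane replicate 6, so this number turned on which calves were included. The 258 genes called between the feeding planes had a median size of r of 0.24 with all calves, below the 0.40 of all genes, and of 0.19 without the 2 libraries, against 0.21. These genes were called in the same 20 calves by a test that divides by the SD within groups. Genes that follow the 2 libraries have a larger such SD, so the lower r is not separate from the choice.

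**Figure D5:**
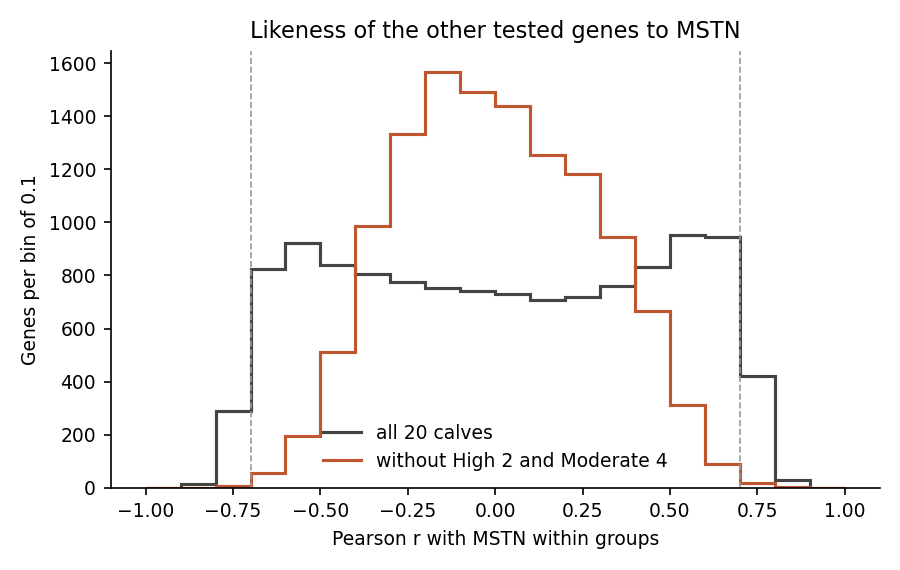
The outlines count genes per bin of 0.1 (vertical axis) by their Pearson r with MSTN within groups (horizontal axis), over all 20 calves (black) and without the 2 libraries that stood apart (red); dashed lines mark -0.7 and 0.7. The black outline has 751 genes past these lines and the red outline has 29.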

How the data were processed

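Per the labels' protocols, RNA purified with a column kit was made into libraries with a stranded kit. The build ARS-UCD1.2 and the tools STAR 2.6.1, cutadapt 2.6, FastQC 0.11.8, edgeR 3.5 and R 3.4 are listed in the submitters' processing notes. How reads were counted, by which annotation and with which strand setting, is not given in the sources used here. Each deposited value is a scaled signal: the authors' read count of a gene over the TMM-scaled size of its library (trimmed mean of M values), times 1000000, as the values themselves show. Whole reads were recovered from 100% of values within 0.01 of a read, and 0 columns were left unused. A gene with no read could have reached 0.202 to 0.333 scaled CPM (3 reads), and these floors and the Poisson intervals cover counting error only.

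The feeding groups were compared with limma 3.58.1 in R 4.3.3 on log2(scaled CPM + 1) with a trended prior, group as the only term, two-sided, with Benjamini-Hochberg adjustment over the 12057 genes kept by edgeR's filterByExpr (4.0.16, minimum count 10). Fold changes on this scale are understated for low genes. Permutation tests used scipy 1.17.1. MSTN, the tests and the rule for the 2 most and 2 least alike genes were chosen with earlier results of these data known. The alternatives were edgeR, DESeq2 1.42.0 and voom on the recovered reads, other scalings, filters, pseudocounts and covariates, and fits without single calves. The limma and edgeR fits and the permutation tests were also run on simulated data. In the simulated reads each gene varied independently, without the shared axis or the libraries that stood apart here. The 37063 rows of the RefSeq table hold 0 Ensembl identifiers, so 0 of the 27607 identifiers were matched, and the planned pathway and marker lists were not analysed here. No sequence or position on the build of the files was used here. The calves carry 1 library each by the labels, so the replicate is the animal.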

Additional observations from a re-analysis of the deposited data

Results flagged for a closer look

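Values far from the other 9 of their group were sought in 22 groups of values, of which chance picks out about 1 in 20. They were 9 in number, and all belonged to High plane replicate 2 or Moderate plane replicate 4. The groups of values are not independent, because the 4 genes were picked for going with MSTN and the axis stretches toward outlying libraries. MSTN itself was not among them: the gap below High plane replicate 2 was 0.396 of its group's range on the log2(scaled CPM + 1) scale, under the critical share of 0.466.

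Moderate plane replicate 4 had 14123113 reads, with 13329794 as the next total in its group. On the axis of variation within groups High plane replicate 2 scored 62.4, next to 12.2, and Moderate plane replicate 4 scored 59.2, next to 21.5. On the log2(scaled CPM + 1) scale ENSBTAG00000021967 was at 1.69 in High plane replicate 2, with 2.67 as the nearest value. ENSBTAG00000049091 was at 4.06 in High plane replicate 2 (nearest 5.20) and at 4.40 in Moderate plane replicate 4 (nearest 5.32). ENSBTAG00000003148 was at 5.46 in High plane replicate 2 (nearest 5.19). ENSBTAG00000003639 was at 5.31 in High plane replicate 2 (nearest 4.81) and at 5.33 in Moderate plane replicate 4 (nearest 4.92).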

How the results depend on the processing

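MSTN stayed on the same side of the threshold, with the same sign, in all 34 alternative fits: its log2 difference was 0.15 to 0.30 in 14 of them (adjusted p 0.489 to 0.895) and 0.09 to 0.36 without 1 calf. Genes called higher and lower numbered 292 and 291 with DESeq2, 333 and 286 with voom, 291 and 240 with the top 20 percentage (reads in the 20 most abundant genes) as covariate, and 231 and 186 without the 2 libraries that stood apart. Of the alternatives that were not planned, the TMM factor as covariate gave 276 and 244, and edgeR without the 2 libraries 241 and 224. With all calves edgeR gave 149 and 148. Leaving out the 2 libraries was planned, but with earlier results known, and they are set apart by these same data. Plain library totals gave 99 and 133. Without 1 calf the counts ran from 80 to 210 higher and 62 to 200 lower. They were lowest without Moderate plane replicate 2 and highest without High plane replicate 2 (210 and 200). They also fell by over 1.5 times without High plane replicates 4 (89 and 77) and 5 (91 and 78), and in lower genes without replicates 6 (77) and 9 (68). The causes were not tested.

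The difference in spread turned to -0.0122 without the 2 libraries, to -0.0746 without High plane replicate 2 and to -0.00216 without High plane replicate 8 (-0.0746 to 0.113 without 1 calf). Correlations with library measures lost the threshold without the 2 libraries: -0.43 for the total, 0.20 for the TMM factor, 0.10 for genes with a read and -0.12 for the top 20 percentage. Without 1 calf they ran from -0.65 to -0.52, 0.30 to 0.65, 0.25 to 0.65 and -0.61 to -0.22, and the last 3 lost the threshold without High plane replicate 2 (adjusted p = 0.371). Genes with r of 0.7 or more in size numbered 751, but 492 with a pseudocount of 5, 2127 with library totals alone, 29 without the 2 libraries and 61 to 1508 without 1 calf, with 1159 without Moderate plane replicate 10. The correlation of ENSBTAG00000003148 turned to 0.0414 with library totals alone. Read sampling alone, without other effects of depth, came to 4.04% of the MSTN variance within groups. The pathway lists were not run, for lack of symbols. No paired analysis was made, because the calves of the 2 planes are different animals with 1 library each and the labels name no pairs. The replicate numbers used here, given in accession order, only name the calves.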
